A study of Mus musculus with 32 samples.

Results

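The 10 genes described here, *Ccl2*, *Ccl3*, *Ccl4*, *Ccl5*, *Ccl6*, *Ccl7*, *Ccl9*, *Ccl20*, *Ccl22* and *Ccl24*, encode CC chemokines and were taken by symbol from the 54532 genes of a liver RNA-seq count table. The livers came from 12-week-old C57BL/6 mice in 8 groups of 4: female and male wild-type (WT) and *Cyp2c70* knockout (KO) mice, each kept on chow or on chow containing SC-435 at 0.006% of the diet, about 11 mg/kg/day. SC-435 blocks the transporter that takes up bile acids in the ileum and so interrupts their return to the liver, and *Cyp2c70* encodes the enzyme that makes muricholic acids in mice. The KO allele is a CRISPR-Cas9 deletion spanning exon 2 in the germ line, and all KO mice descend from 1 founder. The comparisons ask which CC chemokines differ between KO and WT livers, and which differ between KO livers with and without SC-435, in each sex.

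CC chemokines are small secreted proteins, named for a pair of adjacent cysteines, that bind G protein-coupled receptors on leukocytes and direct their movement into tissue. *Ccl2* and *Ccl7* are ligands of the monocyte receptor Ccr2, and *Ccl3* and *Ccl5* bind Ccr1 on myeloid cells, while *Ccl4* is a close relative of *Ccl3*. *Ccl6* and *Ccl9* are rodent chemokines made largely by myeloid cells, *Ccl22* is a dendritic cell and macrophage product that binds Ccr4, *Ccl24* is an eotaxin that binds Ccr3, and *Ccl20* is the ligand of Ccr6.

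The 30 bases around the codons of the adjacent cysteines are shown for 9 members because this pair is the feature that defines the family. Sequences are from the GENCODE transcripts on GRCm38, read 5′ to 3′ on the coding strand, and capitals mark the codons of the cysteine pair, whose coordinates are given. The pair lay in exon 3 of *Ccl6* and *Ccl9* and in exon 2 of the other 7 shown.
Ccl2 (chr11:82036506-82036511, plus strand): gccccactcaccTGCTGCtactcattcacc
Ccl7 (chr11:82046538-82046543, plus strand): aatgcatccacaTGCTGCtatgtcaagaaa
Ccl4 (chr11:83663482-83663487, plus strand): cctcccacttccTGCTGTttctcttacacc
Ccl5 (chr11:83529242-83529247, minus strand): gacaccactcccTGCTGCtttgcctacctc
Ccl22 (chr8:94746934-94746939, plus strand): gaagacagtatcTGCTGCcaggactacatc
Ccl6 (chr11:83589386-83589391, minus strand): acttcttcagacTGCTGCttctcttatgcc
Ccl9 (chr11:83575926-83575931, minus strand): gactcttcagatTGCTGCctgtcctataac
Ccl24 (chr5:135572665-135572670, minus strand): atcccctcatctTGCTGCacgtcctttatt
Ccl20 (chr1:83117813-83117818, plus strand): agcaactacgacTGTTGCctctcgtacata

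The genes fall into 2 clusters on chromosome 11 and 3 separate loci. *Ccl2* (ENSMUSG00000035385, chr11:82035571-82037453, plus strand) lies 8259 bases before *Ccl7* (ENSMUSG00000035373, chr11:82045712-82047525, plus strand). Further along the chromosome are *Ccl5* (ENSMUSG00000035042, chr11:83525778-83530518, minus strand), *Ccl9* (ENSMUSG00000019122, chr11:83572919-83578636, minus strand), *Ccl6* (ENSMUSG00000018927, chr11:83587882-83593087, minus strand), *Ccl3* (ENSMUSG00000000982, chr11:83647844-83649355, minus strand) and *Ccl4* (ENSMUSG00000018930, chr11:83662584-83664683, plus strand). *Ccl22* (ENSMUSG00000031779, chr8:94745590-94751699, plus strand), *Ccl24* (ENSMUSG00000004814, chr5:135569937-135573049, minus strand) and *Ccl20* (ENSMUSG00000026166, chr1:83116766-83119167, plus strand) lie elsewhere. Of the transcript words of 50 bases, 59 of 2996 in *Ccl9* also occur in transcripts of other genes, 250 in all, and 0 do in the other 9 members. On the opposite strand, *Ccl2* overlaps *Gm17268* and *Ccl6* overlaps *E230016K23Rik*.

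The 32 libraries held 36476021 to 44771350 counts assigned to genes. Levels are given as counts scaled to a library of fixed size (CPM), with TMM factors applied to the library totals. *Cyp2c70* transcript was 110 to 187 CPM in KO mice and 275 to 851 CPM in WT mice with no overlap, as a count over the whole gene that does not check the deleted exon. The labelled tissue was checked with 8 hepatocyte markers, which were all detected in every group with summed levels of 57300 to 179000 CPM. The library of male WT chow replicate 1 stood apart, with a TMM factor of 0.639 and a mean correlation of 0.911 with its group, where the other 3 had 0.958 to 0.959. Its hepatocyte markers summed to 179000 CPM against 81800 to 90700 in the rest of its group, and its erythroid markers to 659 against 131 to 155 CPM. Counts of calls in male comparisons that use WT chow mice are therefore also given without it. In bulk liver, fewer cells of a type and less RNA per cell cannot be told apart.

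Per kilobase of gene length, *Ccl9* was the most abundant member in every group, with means of 14.0 to 25.3 CPM per kb. *Ccl6* was next at 2.74 to 8.27, followed by *Ccl24* at 1.17 to 1.89, *Ccl5* at 0.522 to 2.89 and *Ccl2* at 0.271 to 4.72, whose order changed between groups. *Ccl4*, *Ccl7*, *Ccl3* and *Ccl22* had overlapping ranges and reached 1.04, 0.986, 0.863 and 1.12 CPM per kb in their highest group, and *Ccl20* reached 0.031. The spread across groups followed another order. The highest group mean was 22.9 times the lowest for *Ccl7*, 17.7 times for *Ccl22*, 17.5 times for *Ccl2* and 16.4 times for *Ccl4*, but 1.81 times for *Ccl9* and 1.61 times for *Ccl24*. For *Ccl7* and *Ccl4* this set KO chow males against WT females with SC-435. The latter had 6 and 7 counts in total over 4 mice, so these ratios are imprecise. *Ccl9* made up 74.1% of the members' summed CPM per kb in female WT chow mice and 55.8% in female KO chow mice, and 76.9% and 54.5% in the corresponding males. With SC-435 its share in KO mice was 76.6% in females and 72.4% in males.

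**Figure D1:**
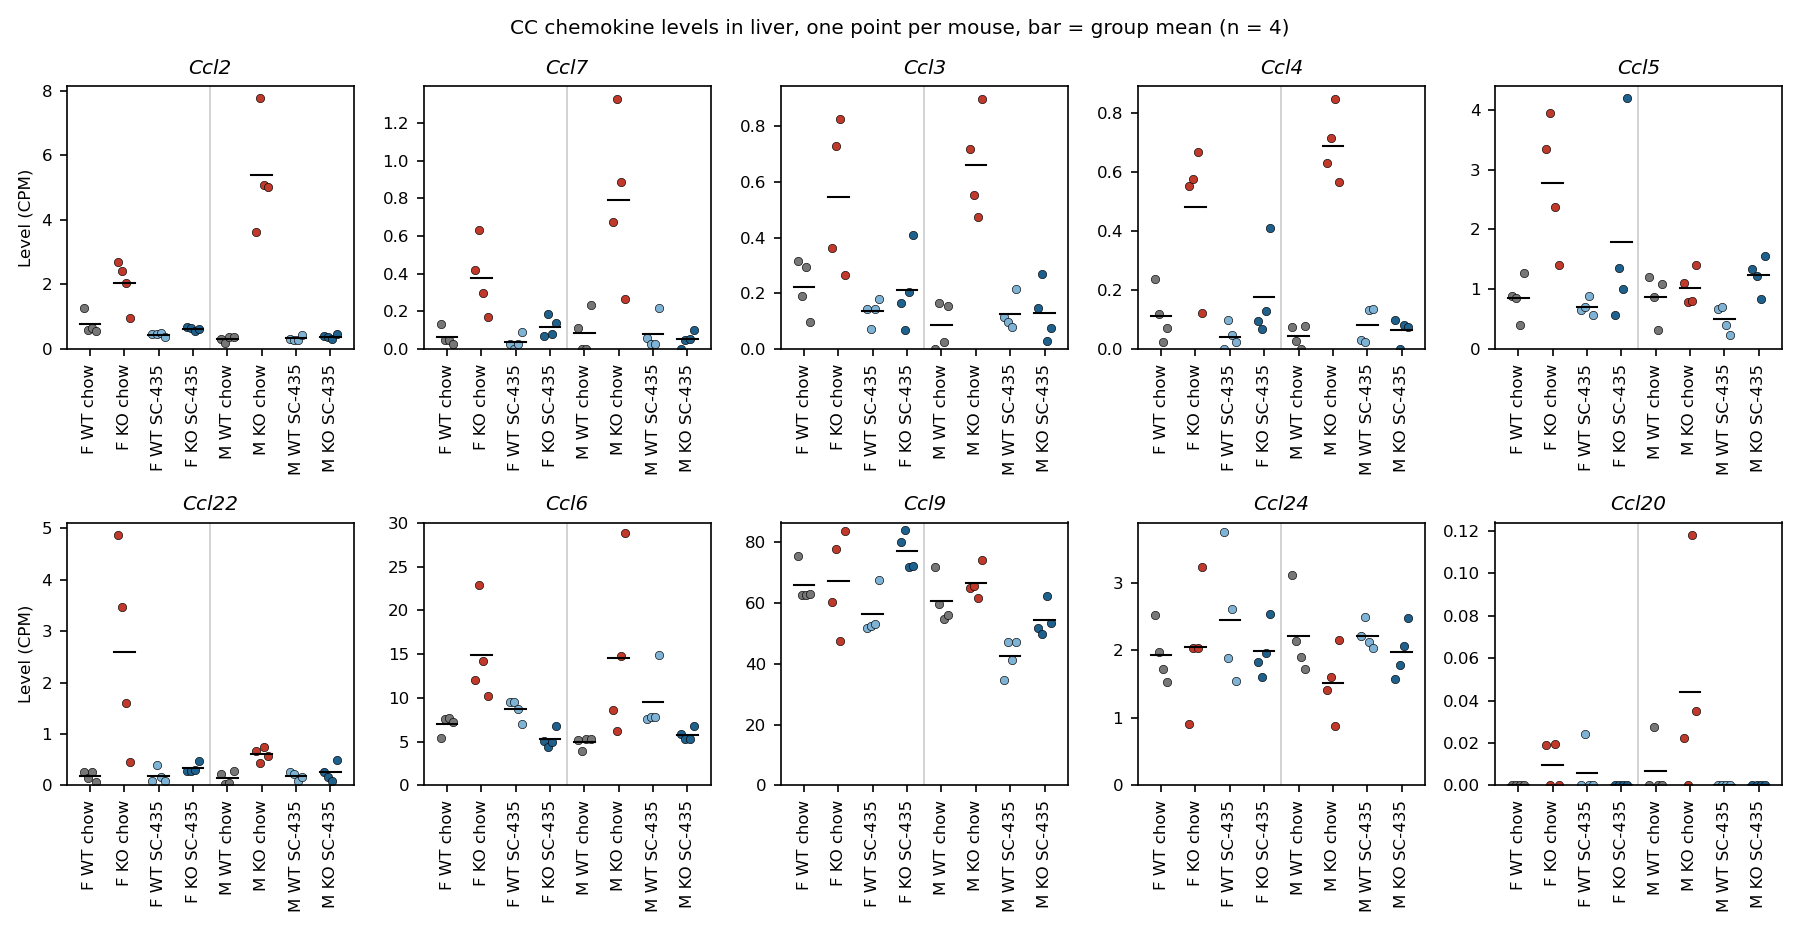
Level of each CC chemokine in CPM (linear axis from 0, scaled separately per gene) in the 8 groups, with 1 point per mouse and a bar at the mean of 4. *Ccl2* in male KO chow mice ranged from 3.64 to 7.77 CPM with every other male mouse at or below 0.451, while *Ccl9* stayed between 34.8 and 84.1 CPM in all mice.

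In female KO against WT mice on chow, 4 of the 7 members that passed the count filter were called higher and 0 were called lower, where 5.67% of all genes tested were called higher. A call means that the quasi-likelihood test of edgeR gave a p below 0.05 after Benjamini-Hochberg correction for all tested genes, and that the log2 fold change was beyond 1 in size. The 4 were *Ccl2*, *Ccl5*, *Ccl6* and *Ccl22*. In males 2 of 9 tested members, *Ccl2* and *Ccl4*, were called higher and 0 lower, against 0.914% of all genes called higher. Without WT chow replicate 1 there were 3 of 9, with *Ccl3* added, against 3.18% of all genes. DESeq2, and edgeR with the 4 male groups in one fit, each called 6, with *Ccl3*, *Ccl6*, *Ccl7* and *Ccl22* added. These fits also called far more of all genes higher, with counts in the closing section, so the 0.914% does not apply to them. In the reported male fits, *Ccl3*, *Ccl4*, *Ccl7* and *Ccl22* passed the filter only in comparisons with KO chow mice, where they were highest. They could hardly have been called lower, so their part of the count is partly set by the filter. Fitted without a filter, the median log2 fold change of all 10 members was 1.59 in females and 2.19 in males, beside 0.04 and 0.14 for all genes.

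In female KO mice with SC-435 against KO mice on chow, 3 of 8 tested members were called lower (*Ccl2*, *Ccl6* and *Ccl22*) and 0 higher, against 3.7% of all genes called lower. In males 4 of 9 were called lower (*Ccl2*, *Ccl3*, *Ccl4* and *Ccl7*) and 0 higher, against 4.57% of all genes. *Ccl3*, *Ccl4* and *Ccl7* again passed the filter only through the KO chow mice, so they could hardly have been called higher. In females this held for *Ccl3* and *Ccl4*, neither of them called. The unfiltered median of the 10 members was −1.48 in females and −1.85 in males, beside −0.07 and −0.10 for all genes. These comparisons use the same KO chow mice as the comparisons with WT, so their values are given side by side and are not separate evidence.

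*Ccl2*, the main attractant of monocytes, was higher in KO than WT mice on chow and lower again with SC-435 in both sexes. In males it was at 0.303, 0.192, 0.375 and 0.361 CPM in WT chow mice, at 3.64, 7.77, 5.09 and 5.01 in KO chow mice, and at 0.393, 0.367, 0.296 and 0.451 in KO mice with SC-435. All 4 KO chow males stood above every other male. The male difference between genotypes was 17.8-fold, a log2 fold change of 4.15 ± 0.365 (SE, n = 4 per group, adjusted p = 0.00209), or 4.14 with an adjusted p of 0.00283 without WT chow replicate 1. With SC-435, *Ccl2* fell by 3.85 on the log2 scale (SE 0.282, adjusted p = 0.000159).

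Female *Ccl2* was at 1.26, 0.591, 0.639 and 0.549 CPM in WT chow mice, at 2.69, 2.42, 2.04 and 0.973 in KO chow mice, and at 0.681, 0.646, 0.566 and 0.613 in KO mice with SC-435. WT chow replicate 1 was above KO chow replicate 4, so the genotypes overlapped, whereas every treated KO female was below every KO chow female. *Ccl2* rose by 1.45 ± 0.373 on the log2 scale in female KO chow mice (adjusted p = 0.0276) and fell by 1.72 with SC-435 (SE 0.306, adjusted p = 0.00694). The female genotype call was lost on leaving out WT chow replicate 2, 3 or 4 or KO chow replicate 1, 2 or 3, with log2 fold changes of 1.31 to 1.47 and adjusted p of 0.0604 to 0.0785.

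*Ccl7*, the neighbouring gene and another Ccr2 ligand, was present at lower counts and was also highest in the KO chow mice of each sex. Male WT chow mice were at 0.114, 0, 0 and 0.232 CPM, KO chow mice at 0.673, 1.33, 0.887 and 0.265, and KO mice with SC-435 at 0, 0.0489, 0.0539 and 0.1. The KO chow males stood above the others, although replicate 4 was only just above the highest WT mouse. *Ccl7* fell by 3.91 on the log2 scale with SC-435 (SE 0.694, adjusted p = 0.00862). The male genotype difference of 3.19 ± 0.943 was not called (adjusted p = 0.151, and 3.31 with 0.0872 without WT chow replicate 1), but was in DESeq2 (3.17, adjusted p = 0.0175) and with 4 groups in one fit (3.18, 0.0339). In females *Ccl7* was at 0.131, 0.0472, 0.0491 and 0.0239 CPM in WT chow, 0.419, 0.633, 0.295 and 0.170 in KO chow and 0.0704, 0.185, 0.0772 and 0.136 in treated KO mice. It did not pass the count filter for these female comparisons. An exact two-sided permutation test gave p = 0.0286 between genotypes, the smallest that 4 against 4 mice allow, and p = 0.0571 between treated and untreated KO mice, both 0.476 after adjustment over the 25 such tests. Without KO chow replicate 4 female *Ccl7* passed the filter and was called in both comparisons (2.86, adjusted p = 0.00503, and −1.92, 0.0105). That mouse was the lowest KO chow female for *Ccl7*, so leaving it out raises the group mean and favours a call.

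*Ccl3* and *Ccl4*, neighbouring genes whose products recruit macrophages and lymphocytes, were low in all groups except KO mice on chow. *Ccl4* was at 0.0759, 0.0274, 0 and 0.0773 CPM in male WT chow mice, at 0.629, 0.713, 0.848 and 0.564 in KO chow mice, and at 0.0983, 0, 0.0808 and 0.0752 in treated KO mice. The KO chow males did not overlap either group, with 28 to 43 counts each against at most 3 in WT mice. *Ccl4* rose by 3.95 ± 0.62 on the log2 scale between genotypes, 15.4-fold (adjusted p = 0.0292, and 4.24 with 0.0142 without WT chow replicate 1), and fell by 3.42 with SC-435 (SE 0.506, adjusted p = 0.0042). The genotype call was lost on leaving out any other single male library, with log2 fold changes of 3.5 to 4.42 and adjusted p of 0.0548 to 0.139.

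Male *Ccl3* was at 0, 0.164, 0.0250 and 0.155 CPM in WT chow, 0.718, 0.552, 0.473 and 0.900 in KO chow and 0.147, 0.269, 0.0269 and 0.0752 in KO mice with SC-435. Again the KO chow males were above both other groups without overlap. *Ccl3* fell by 2.34 with SC-435 (SE 0.513, adjusted p = 0.0183), a call lost without treated KO replicate 1 (−2.40, adjusted p = 0.0555) or 4 (−2.15, 0.0624). The genotype difference of 2.89 ± 0.686 had an adjusted p of 0.0911, and was 2.55 with 0.0329 without WT chow replicate 1. In DESeq2 it was 2.88 with an adjusted p of 0.00105, and with 4 groups in one fit 2.86 with 0.015.

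In females the same genes differed less cleanly between groups. *Ccl3* was at 0.315, 0.189, 0.295 and 0.0955 CPM in WT chow, 0.362, 0.729, 0.825 and 0.267 in KO chow and 0.164, 0.0692, 0.206 and 0.409 in treated KO mice. *Ccl4* was at 0.236, 0.118, 0.0246 and 0.0716 in WT chow, 0.552, 0.575, 0.668 and 0.122 in KO chow and 0.0939, 0.0692, 0.129 and 0.409 in treated KO mice. For both genes KO chow replicate 4 was the lowest and treated KO replicate 4 the highest of their groups, and the groups overlapped. *Ccl3* differed by 1.32 ± 0.474 between genotypes (adjusted p = 0.0886) and by −1.38 ± 0.525 with SC-435 (adjusted p = 0.0963). *Ccl4* differed by −1.46 ± 0.614 with SC-435 (adjusted p = 0.126), and between genotypes gave p = 0.0571 in an exact permutation test (adjusted p = 0.476). Without KO chow replicate 4, *Ccl3* and *Ccl4* were called between genotypes (1.56, adjusted p = 0.0369, and 2.45, 0.00883), and both genes were called with SC-435 (−1.59 with 0.0411 for *Ccl3* and −1.76 with 0.0287 for *Ccl4*). Without treated KO replicate 4 both were also called with SC-435 (−1.92 with 0.047 and −2.31 with 0.0367). Leaving out the lowest KO chow mouse or the highest treated mouse favours these calls.

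*Ccl5*, a T cell and monocyte attractant, rose in female KO mice and not detectably in males. Female levels were 0.892, 0.850, 0.393 and 1.27 CPM in WT chow, 3.35, 3.95, 2.38 and 1.41 in KO chow and 0.563, 1.36, 1.0 and 4.20 in treated KO mice. All KO chow females were above all WT chow females, and 3 of the 4 treated KO females were below all KO chow females, while treated replicate 4 was above them. *Ccl5* rose by 1.73 ± 0.389 on the log2 scale between genotypes (adjusted p = 0.0164, or 1.53 with 0.0536 without KO chow replicate 2). The difference with SC-435 was −0.65 ± 0.543 (adjusted p = 0.436), and −1.52 with 0.0371 without treated KO replicate 4. Leaving out that mouse, the highest treated one, favours such a call. Male levels were 1.21, 0.877, 0.325 and 1.08 in WT chow, 1.10, 0.782, 0.808 and 1.41 in KO chow and 1.33, 1.22, 0.835 and 1.55 in treated KO mice, and these groups overlapped throughout. The male genotype difference was 0.28 ± 0.443 (adjusted p = 0.796, and 0.47 with 0.519 without WT chow replicate 1), with an approximate 95% interval of −0.59 to 1.15 on the log2 scale.

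*Ccl22*, the dendritic cell and macrophage ligand of Ccr4, had the largest female genotype difference of the members tested. Female WT chow mice were at 0.262, 0.142, 0.270 and 0.0716 CPM, KO chow mice at 4.87, 3.47, 1.61 and 0.462 and treated KO mice at 0.282, 0.277, 0.309 and 0.477. The KO chow females spanned a wide range, and the lowest of them, replicate 4, was just under the highest treated KO mouse. *Ccl22* rose 14.2-fold between genotypes, by 3.83 ± 0.705 on the log2 scale (adjusted p = 0.00729), and fell by 2.97 with SC-435 (SE 0.622, adjusted p = 0.0121). Without KO chow replicate 4 these were 4.20 (adjusted p = 0.000349) and −3.31 (adjusted p = 0.000257). In males *Ccl22* was at 0.228, 0.0274, 0.05 and 0.283 in WT chow, 0.673, 0.437, 0.749 and 0.564 in KO chow and 0.270, 0.171, 0.0808 and 0.501 in treated KO mice. The male genotypes did not overlap, with means of 0.147 and 0.606 CPM, but the difference of 2.09 ± 0.627 was not called (adjusted p = 0.153, and 2.33 with 0.0661 without WT chow replicate 1), nor was that of −1.26 ± 0.463 with SC-435 (adjusted p = 0.0856). Without treated KO replicate 4, the highest treated male, the latter was −1.80 with 0.0497, and this omission favours a call. The male genotype difference was called in DESeq2 (2.04, adjusted p = 0.0345) and with 4 groups in one fit (2.07, 0.0456).

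**Figure D2:**
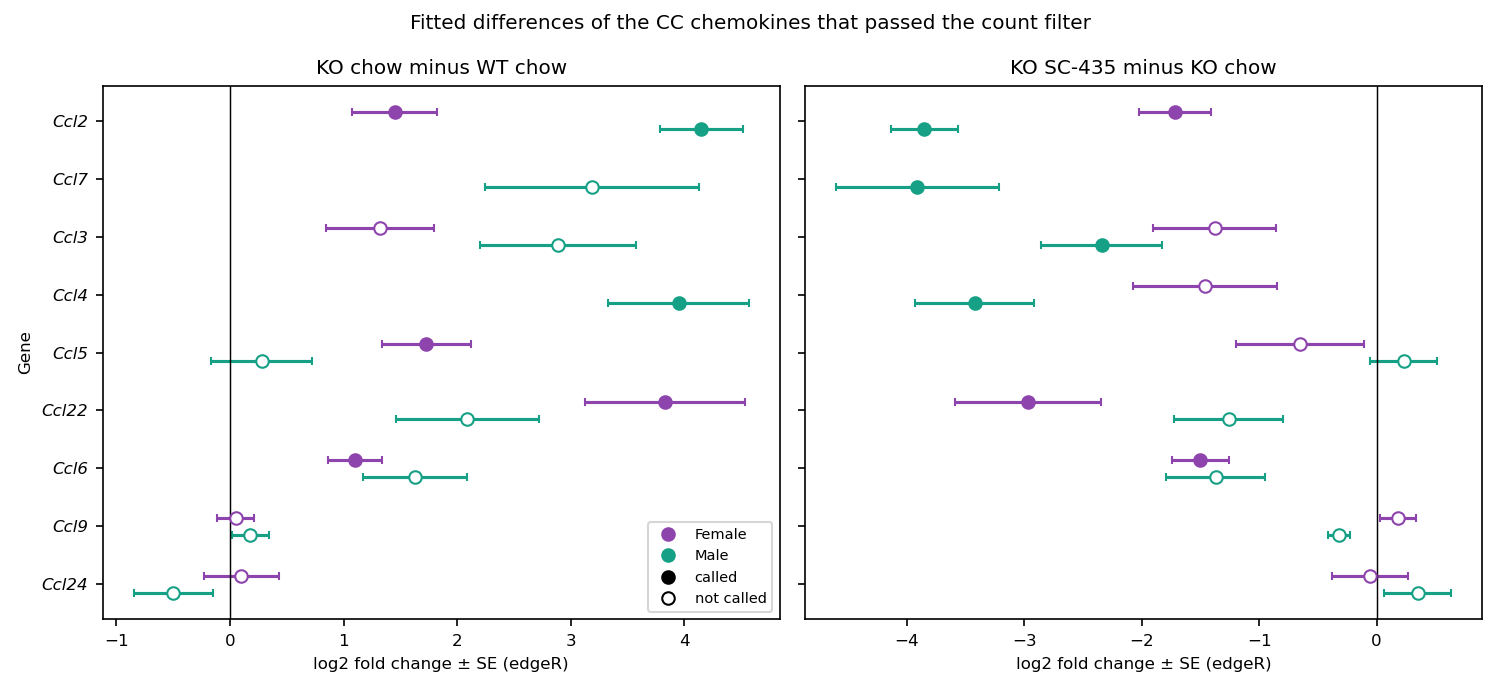
Log2 fold change with its standard error from edgeR for each member that passed the count filter, KO chow minus WT chow (left) and KO SC-435 minus KO chow (right), in females and males (n = 4 mice per group); filled points were called. *Ccl2* lies at 1.45 in females and 4.15 in males on the left and at −1.72 and −3.85 on the right, and *Ccl9* and *Ccl24* lie between −0.50 and 0.35 on both sides.

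*Ccl6* and *Ccl9* are neighbours 9246 bases apart, and *Ccl6* was called between female groups while *Ccl9* was called in none. Female *Ccl6* was at 5.43, 7.65, 7.76 and 7.21 CPM in WT chow, 12.1, 22.9, 14.2 and 10.2 in KO chow and 5.07, 4.45, 4.92 and 6.84 in treated KO mice. The KO chow females were above both other groups without overlap. *Ccl6* rose by 1.10 ± 0.236 on the log2 scale in female KO mice (adjusted p = 0.0131) and fell by 1.5 with SC-435 (SE 0.244, adjusted p = 0.005). The genotype difference was 0.84 with an adjusted p of 0.0232 without KO chow replicate 2, and 1.0 with 0.0373 without WT chow replicate 1, neither past the fold threshold.

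In males *Ccl6* was at 5.20, 3.92, 5.31 and 5.28 CPM in WT chow, 8.64, 6.21, 14.8 and 28.8 in KO chow and 5.83, 5.33, 5.33 and 6.74 in treated KO mice. KO chow replicate 4 was far above the rest of its group and replicate 2 was within the treated range. The genotype difference was 1.63 ± 0.456 (adjusted p = 0.135, and 1.65 with 0.0856 without WT chow replicate 1), and 1.03 with 0.307 without KO chow replicate 4. It was called in DESeq2 (1.56, adjusted p = 0.0175) and with 4 groups in one fit (1.60, 0.0177). The difference with SC-435 was −1.37 ± 0.422 (adjusted p = 0.0524), and it was called without KO chow replicate 1 (−1.56, 0.0346) or 2 (−1.63, 0.0185). It was also called in DESeq2 (−1.36, adjusted p = 0.00605), with library size only (−1.65, 0.0444), without a filter (−1.36, 0.0344) and with 4 groups in one fit (−1.37, 0.0388).

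*Ccl9* was at 75.4, 62.7, 62.6 and 63.1 CPM in female WT chow, 60.4, 77.9, 47.7 and 83.7 in KO chow and 80.1, 84.1, 71.8 and 72.3 in treated KO mice, and the female groups overlapped. Male levels were 72.0, 59.7, 54.7 and 56.1 in WT chow, 65.0, 65.6, 61.8 and 74.1 in KO chow and 52.0, 49.7, 62.4 and 53.6 in treated KO mice. The genotype difference was 0.05 ± 0.161 in females (adjusted p = 0.861) and 0.18 in males, 0.27 with an adjusted p of 0.104 without WT chow replicate 1. With SC-435, male *Ccl9* differed by −0.32 ± 0.0923 with an adjusted p of 0.0412, short of the fold threshold, and the female difference was 0.18. A direct test of *Ccl6* against *Ccl9* was not run.

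Of the 10 members, 5 had an entry among the RefSeq promoters on GRCm38.p6 (*Ccl3*, *Ccl6*, *Ccl9*, *Ccl20* and *Ccl22*). The 100 bases before the start are shown for the neighbours *Ccl6* and *Ccl9*, whose levels differed in pattern, and for *Ccl20*, the other member with a match to the NF-kB consensus. Capitals mark that match.
Ccl6 (chr11:83593088-83593187, minus strand): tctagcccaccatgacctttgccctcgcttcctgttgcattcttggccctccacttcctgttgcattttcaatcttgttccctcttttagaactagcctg
Ccl9 (chr11:83578637-83578736, minus strand): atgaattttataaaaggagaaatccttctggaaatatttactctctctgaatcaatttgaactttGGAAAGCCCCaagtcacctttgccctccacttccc
Ccl20 (chr1:83116666-83116765, plus strand): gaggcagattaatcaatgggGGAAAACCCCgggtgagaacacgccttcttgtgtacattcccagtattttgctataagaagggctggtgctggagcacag

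Motifs were searched on both strands from 250 bases before to 50 bases after the start, in the 5 members and in all 32851 promoters. The NF-kB consensus was found in 2 of 5 and in 8.46% of all promoters, at bases −80 to −71 in *Ccl20* and −35 to −26 in *Ccl9*. TGANTCA, a loose pattern that covers the AP-1 site, was found in 1 of 5 (*Ccl9*) and 7.81% of all. The *Ccl9* match reads TGAATCA, without the C or G in the middle of the usual AP-1 site. TATAAA was found in 1 of 5 (*Ccl9*) and 13.6%. TTCNNNGAA, bound by STAT factors, and the interferon-stimulated response element were found in 0 of 5 and in 8.3% and 3.44%. No match overlapped a match to another motif in these promoters. *Ccl6*, *Ccl3* and *Ccl22* had no match, which says only that these letters are not in the window.

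*Ccl24*, an eosinophil attractant made by macrophages, had group means between 1.52 and 2.45 CPM, with single mice from 0.887 to 3.75 CPM. It was tested in all comparisons and called in none of them. Its lowest group was KO chow males, with a genotype difference of −0.50 ± 0.349 (adjusted p = 0.516, and −0.30 with 0.557 without WT chow replicate 1), while *Ccl2* and *Ccl4* were called higher in the same comparison. *Ccl20*, a lymphocyte and dendritic cell attractant, had 0 to 6 counts per mouse. Its counts over the 4 mice of a group were 0 in female WT chow, 2 in KO chow, 1 in WT with SC-435 and 0 in KO with SC-435, and 1, 9, 0 and 0 in the same order in males. A count of 0 allows up to 3 counts, or 0.0732 to 0.0822 CPM per library in the groups with none, so differences in *Ccl20* were not detectable at this depth. The highest mouse was male KO chow replicate 3 at 0.118 CPM.

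In WT mice, SC-435 gave no call for any of the 5 members tested in each sex by edgeR. *Ccl3*, *Ccl4*, *Ccl7*, *Ccl20* and *Ccl22* were below the count filter in both sexes, with at most 16 counts per mouse. Their permutation tests gave adjusted p of 0.804 or more, but with so few counts differences would be missed. In females 0 of 5 tested members were called, against 1.1% of all genes in either direction, and 1 of the 5 had an unadjusted p below 0.05. That gene was *Ccl2*, at 0.453, 0.464, 0.507 and 0.360 CPM with SC-435, all below the 4 WT chow mice (−0.75 ± 0.317, adjusted p = 0.224). In males 0 of 5 were called, against 0.0394% of all genes, and 2 had an unadjusted p below 0.05. *Ccl6* was at 7.59, 7.81, 7.77 and 14.9 CPM, all above WT chow (0.94 ± 0.27, adjusted p = 0.482, and 0.97 with 0.0978 without WT chow replicate 1). *Ccl9* was at 34.8, 47.1, 41.2 and 47.3 CPM, all below WT chow (−0.53 ± 0.176, adjusted p = 0.641, and −0.42 with 0.0808). Without that library 0 of 5 members were called, and 0.674% of all genes were called higher and 0.353% lower. DESeq2 also called 0 members in both sexes.

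The treated KO mice were also set against WT mice on chow. In females 0 of 6 tested members were called by edgeR, against 3.93% of all genes, with 2 at an unadjusted p below 0.05, *Ccl6* (−0.39, adjusted p = 0.13) and *Ccl9* (0.24, adjusted p = 0.104). *Ccl22* was 0.86 ± 0.428 higher with no overlap (adjusted p = 0.197), and *Ccl5* 1.08 ± 0.56 higher (adjusted p = 0.219), or 0.21 with 0.793 without treated KO replicate 4. In males 0 of 5 were called, against 0.208% of all genes, with 0 at an unadjusted p below 0.05. *Ccl3*, *Ccl4*, *Ccl7* and *Ccl20* were below the count filter in both sexes and *Ccl22* in males. Where counts allowed a permutation test, the adjusted p was 0.804 or more. Without WT chow replicate 1 there were 0 of 6 members, with 1.83% of all genes called higher and 0.798% lower. DESeq2 called 0 in both sexes. A log2 difference of 0.28 ± 0.34 in male *Ccl2* (adjusted p = 0.882, and 0.27 with 0.668 without WT chow replicate 1) compares with 4.15 in untreated KO males.

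The difference between sexes was tested as an interaction, here called at an adjusted p below 0.05. For genotype on chow 0 of 9 tested members were called by edgeR, against 0.0235% of all genes, with 2 at an unadjusted p below 0.05. Without male WT chow replicate 1 it was also 0 of 9, against 0.19% of all genes with a positive and 0.241% with a negative interaction. The *Ccl2* response was 2.66 ± 0.526 lower in females on the log2 scale (interaction −2.66, adjusted p = 0.166, and 0.0506 without male WT chow replicate 1), and DESeq2 called it (−2.65, adjusted p = 0.0022). For *Ccl5* the interaction was 1.49 ± 0.61 (adjusted p = 0.692) and for *Ccl22* 1.77 ± 1.0 (adjusted p = 0.839), both larger in females and neither called. For SC-435 in KO mice 0 of 9 were called, against 0.211%, with 4 at an unadjusted p below 0.05 (*Ccl2*, *Ccl4*, *Ccl7* and *Ccl9*). The *Ccl2* interaction was 2.12 ± 0.422 (adjusted p = 0.0563), and DESeq2 again called *Ccl2* alone (2.14, 0.00108). In edgeR it was also called without male KO chow replicate 1 (2.26, 0.0454) or female KO chow replicate 4 (1.90, 0.0147). No sex difference of another member was called by either tool.

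Whether SC-435 acted differently in KO and WT mice was tested in the same way. In females 1 of 8 tested members was called, *Ccl6* (−1.82 ± 0.304, adjusted p = 0.0141), against 2.64% of all genes. It was 5.43 to 7.76 CPM without and 7.01 to 9.54 CPM with SC-435 in WT females, and 10.2 to 22.9 and 4.45 to 6.84 CPM in KO females. *Ccl22* had a larger interaction of −2.98 ± 0.946 with an adjusted p of 0.0942, and −3.32 with 0.0084 without KO chow replicate 4. In males 1 of 9 was called, *Ccl2* (−3.93 ± 0.43, adjusted p = 0.000814, and −3.94 with 0.00147 without WT chow replicate 1), against 0.0906% of all genes. *Ccl6* had −2.32 ± 0.528 with 0.0989, *Ccl4* −4.26 with 0.122, *Ccl3* −2.82 with 0.244 and *Ccl7* −3.82 with 0.279. Without WT chow replicate 1 these 4 had adjusted p of 0.0649 to 0.181, where 0.301% of all genes were called with a positive and 0.396% with a negative interaction. *Ccl6* was called without KO chow replicate 2 (−2.58, 0.0457), without a filter (−2.36, 0.0494) and in DESeq2 (−2.29, 0.00389). DESeq2 also called *Ccl4* in males (−4.35, adjusted p = 0.00677) and *Ccl22* in females (−2.97, 0.0174).

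Single KO mice differed in how many members they carried high. Among 7 members with a mean of at least 10 counts, female KO chow replicate 4 was the lowest of its group for 5 (*Ccl2*, *Ccl3*, *Ccl5*, *Ccl6* and *Ccl22*) and the highest for *Ccl9* and *Ccl24*. Male KO chow replicate 4 was the highest of its group for 5 (*Ccl3*, *Ccl5*, *Ccl6*, *Ccl9* and *Ccl24*) but not for *Ccl2*, which was highest in replicate 2. Among treated KO mice, female replicate 4 was highest for *Ccl3*, *Ccl5*, *Ccl6*, *Ccl22* and *Ccl24*, and male replicate 4 for *Ccl2*, *Ccl5*, *Ccl6*, *Ccl22* and *Ccl24*. Without female KO chow replicate 4, 7 of 9 tested members were called higher between female genotypes and 6 were called lower with SC-435, against 7.56% and 5.51% of all genes. Leaving out a mouse that was lowest for most of these members favours such calls, so these counts are no separate support. Without treated KO female replicate 4, 6 members were called lower with SC-435, against 4.06% of all genes. That mouse was the highest of its group for *Ccl3*, *Ccl5*, *Ccl6*, *Ccl22* and *Ccl24*, so leaving it out favours such calls in the same way. Without KO chow replicate 2 there was 1 call between female genotypes (*Ccl22*, 3.69 with an adjusted p of 0.0229), against 3.86%.

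**Figure D3:**
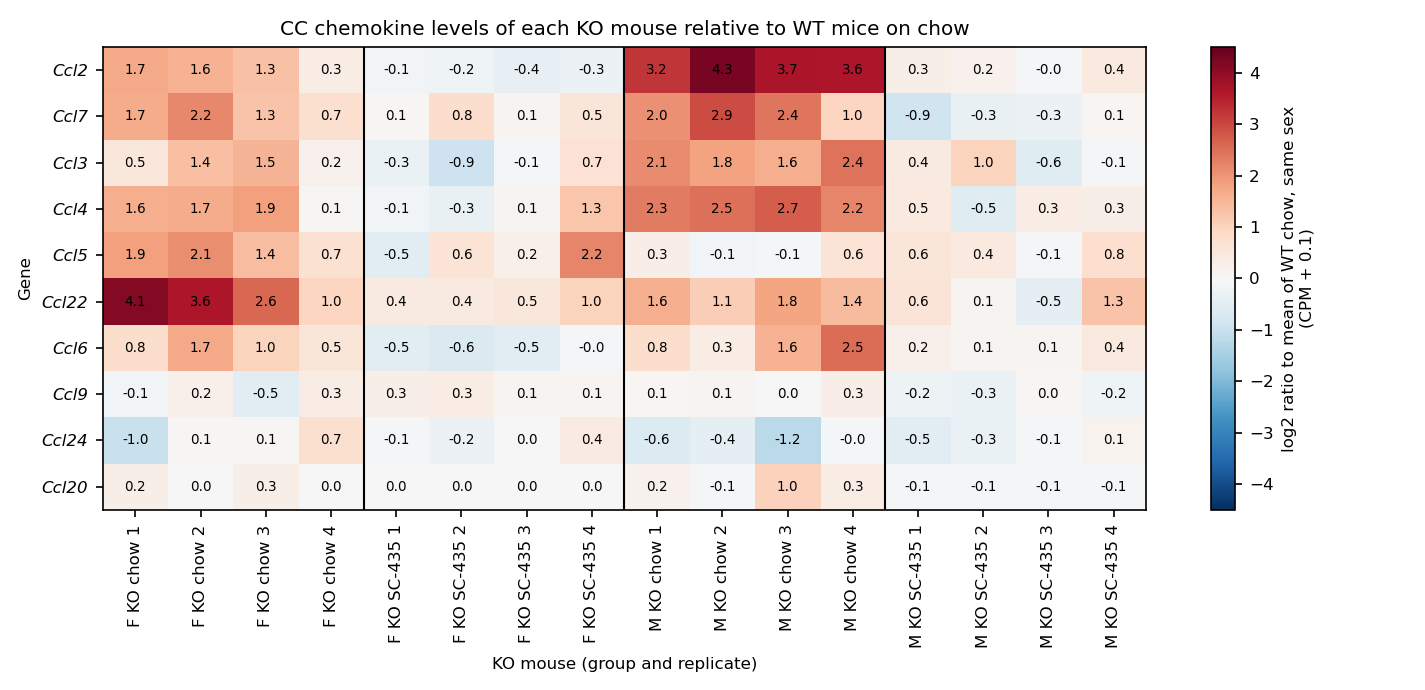
Heat map of the log2 ratio of each KO mouse to the mean of the WT chow mice of its sex (CPM + 0.1), with 1 column per mouse and 1 row per member; red is higher and blue lower, and the printed value is the ratio. The female KO chow columns are strongest in *Ccl22* and the male ones in *Ccl2*, with female KO chow mouse 4 paler than the other 3 in the upper rows, and the SC-435 columns are mostly near 0. The added 0.1 CPM shrinks the ratios of rare members, such as *Ccl4* with a male WT chow mean of 0.0451 CPM, so rows are not directly comparable.

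Over the 32 mice, the protein-coding genes most like each member were found by Pearson's r of log2 CPM among 11730 candidates. The mice share their groups, so r within groups, after subtracting group means, is given too. *Ccl2* was most like *Tnfaip3* (r = 0.905, within groups 0.382), which encodes an inhibitor of NF-kB signalling, *Fosb* (0.899, 0.198), a subunit of AP-1, and *Dusp5* (0.898, 0.306), a MAP kinase phosphatase. *Ccl6* was most like *Ms4a6d* (0.876, 0.801), *Ly86* (0.868, 0.809) and *Slc11a1* (0.852, 0.844), genes of macrophages, and these values held up within groups. *Ccl5* was most like the MHC class II genes *Cd74* (0.816, 0.69), *H2-Eb1* (0.805, 0.682) and *H2-Aa* (0.805, 0.689). *Ccl22* was most like *Cacnb3* (0.866, 0.634), *Fxyd5* (0.853, 0.689) and *Itgax* (0.852, 0.61), the last a marker of dendritic cells.

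*Ccl3* was most like *Tceal9* (0.87, 0.68), *Adamts10* (0.846, 0.612) and *Plek* (0.83, 0.637). *Ccl9* was most like *Sema6c* (0.758, 0.343), *Smtn* (0.746, 0.365) and *Dnph1* (0.725, 0.547), and *Ccl24* like *Fcna* (0.696, 0.734), *Smpdl3a* (0.634, 0.638) and *Cpsf3* (0.626, 0.58). Between members the highest r was 0.76 for *Ccl2* and *Ccl3* (0.146 within groups), then 0.697 for *Ccl2* and *Ccl22* (0.576), and 0.676 for *Ccl5* and *Ccl22* (0.44). *Ccl6* and *Ccl9* had −0.03 (0.05).

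Among 11 genes of CC chemokine receptors, 3 of 6 tested were called higher in female KO than WT mice on chow, 0 lower. Of all genes, 5.67% were called higher. *Ccr2*, the monocyte receptor of *Ccl2* and *Ccl7*, had means of 1.16 CPM in WT chow, 5.87 in KO chow and 2.06 in treated KO females. It rose by 2.36 ± 0.323 on the log2 scale (adjusted p = 0.0023) and fell by 1.53 with SC-435 (SE 0.332, adjusted p = 0.0138). *Ccr7*, a homing receptor of dendritic cells and lymphocytes, rose by 2.75 ± 0.658 (adjusted p = 0.0209) and fell by 2.41 (SE 0.623, adjusted p = 0.0261). *Ccr9*, a gut-homing receptor, rose by 1.43 ± 0.309 (adjusted p = 0.0135) and fell by 1.25 (SE 0.348, adjusted p = 0.0336). *Ccr3*, the receptor of *Ccl24*, differed by 2.03 between genotypes (adjusted p = 0.0681), *Ccrl2*, which binds chemerin, by 0.64 (adjusted p = 0.081), and *Ccr10*, a skin-homing receptor, by −0.35 (adjusted p = 0.546). With SC-435 3 of 6 were called lower, 0 higher, against 3.7% of all genes called lower. Without KO chow replicate 4, 4 receptors were called in each of these comparisons, with *Ccr1* added in both, against 7.56% and 5.51% of all genes.

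In males 0 of 7 tested receptors were called between genotypes by edgeR, also without WT chow replicate 1, against 0.914% and 3.18% of all genes called higher. With SC-435, 3 of 7 were called lower, against 4.57% of all genes. Only 5 receptors passed the filter in treated KO against WT chow males, so some passed only through the KO chow mice. *Ccr2* averaged 0.81 CPM in WT chow males, 8.89 in KO chow, where mice ran from 2.14 to 24.7, and 1.46 in treated KO males. It differed by 3.49 ± 0.963 between genotypes (adjusted p = 0.13) and fell by 2.66 with SC-435 (SE 0.728, adjusted p = 0.0371). *Ccr3* fell by 3.43 (SE 0.797, adjusted p = 0.0221) and *Ccr1*, a myeloid receptor of *Ccl3* and *Ccl5*, fell by 2.92 (SE 0.753, adjusted p = 0.0305), with genotype differences of 3.35 (0.122) and 3.78 (0.112). The receptors *Ccr4* of *Ccl22* and *Ccr6* of *Ccl20* were not tested, with group means of at most 0.0883 and 0.201 CPM, and *Ccr8* and *Ccr1l1* were at or below 0.0432 and 0.064 CPM. The median log2 fold change of the receptors tested was 1.73 and 0.64 between female and male genotypes and −0.91 and −0.72 with SC-435, beside −0.02, 0.04, −0.02 and −0.03 for all genes.

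**Figure D4:**
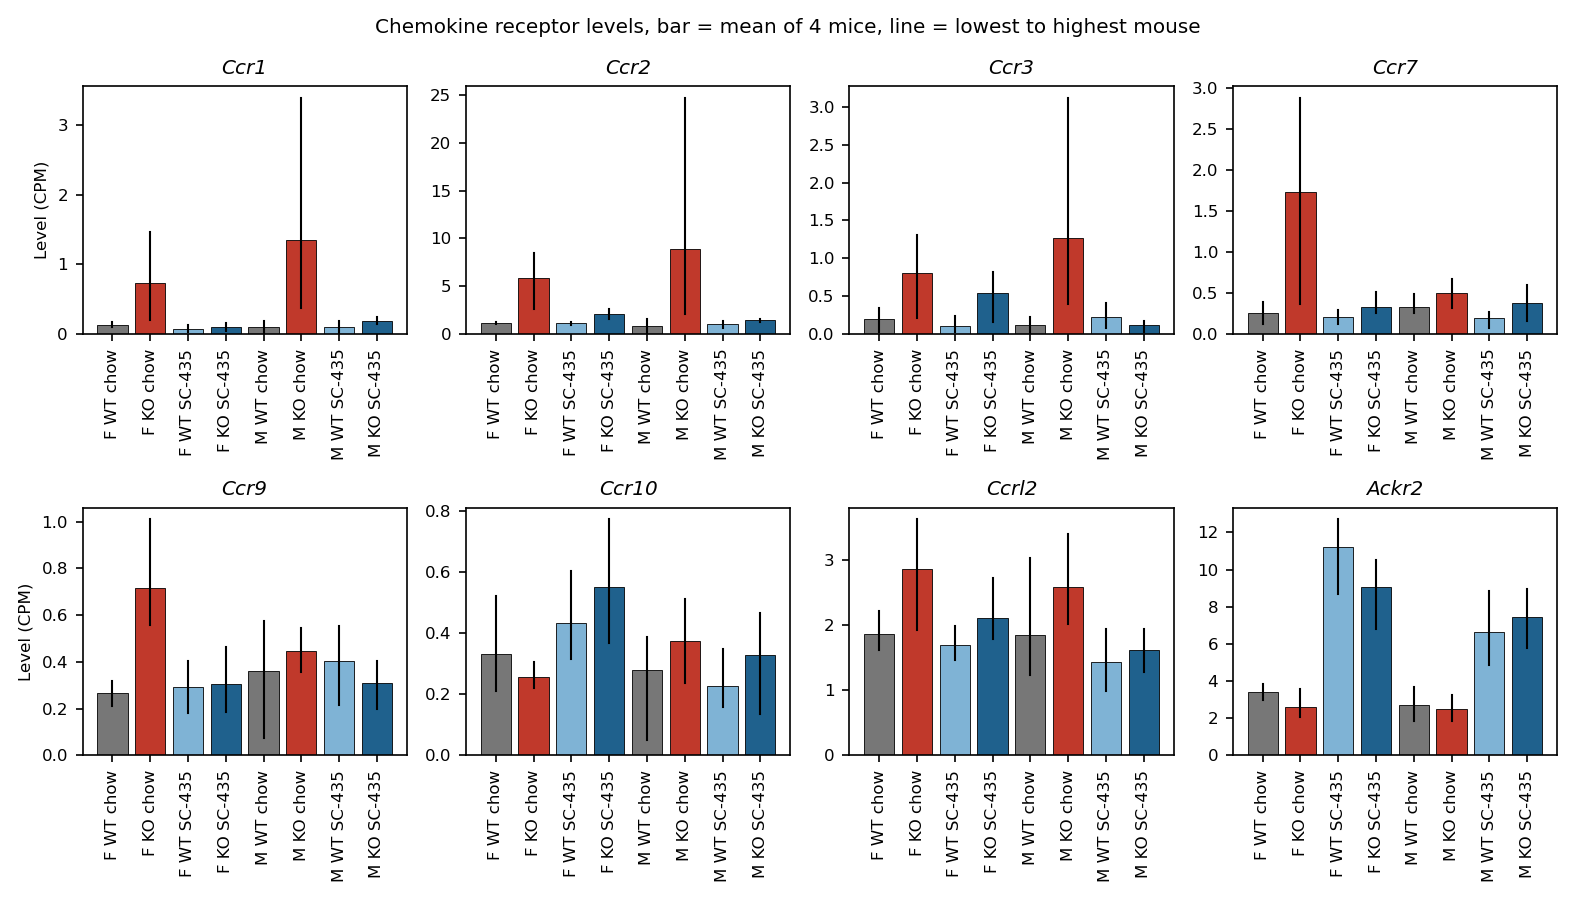
Mean level in CPM (bars from 0) of 8 chemokine receptor genes in the 8 groups, with a line from the lowest to the highest of 4 mice. *Ccr2* is highest in KO chow mice of both sexes with a male range of 2.14 to 24.7, and *Ackr2* is higher in all 4 SC-435 groups than in the 4 chow groups.

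*Ackr2*, an atypical receptor that takes up and degrades inflammatory CC chemokines, showed another pattern. Its means were 3.41 CPM in WT chow, 2.62 in KO chow, 11.2 in WT with SC-435 and 9.06 in KO with SC-435 in females, and 2.69, 2.51, 6.64 and 7.42 in males. In KO mice it rose with SC-435 by 1.77 ± 0.207 in females (adjusted p = 0.00154) and 1.54 ± 0.214 in males (adjusted p = 0.0032). In WT females it rose by 1.71 ± 0.145 (adjusted p = 0.00181), and in WT males the difference of 1.29 ± 0.309 was not called (adjusted p = 0.334), but was without WT chow replicate 1 (1.39 ± 0.302, with an adjusted p just under the threshold). Between genotypes on chow, 0 of 4 atypical receptors were called by edgeR in either sex, and 1 of 4 (*Ackr1*, higher in males) without male WT chow replicate 1. Of 14 other CC ligand symbols, *Ccl25* and *Ccl27a* were tested in all comparisons and *Ccl28* in 4, 3 of them interactions, and 0 were called in the KO comparisons by edgeR.

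A list of 15 NF-kB pathway genes, which also held the adhesion genes *Vcam1* and *Icam1*, was read beside the chemokines. NF-kB is a main route to inflammatory chemokine transcription. In female KO mice 5 of 15 were called higher and 5 of 15 lower with SC-435, against 5.67% and 3.7% of all genes. *Traf1* rose by 1.86 and fell by 1.51, *Vcam1*, a leukocyte adhesion protein, rose by 1.57 and fell by 1.37, *Relb* rose by 1.36 and fell by 1.36, and *Tnfaip3* rose by 1.33 and fell by 1.24. In males 1 of 15 was called higher between genotypes, *Tnfaip3* (2.83 ± 0.33, adjusted p = 0.00949), against 0.914% of all genes. Without WT chow replicate 1 it was 6 of 15 against 3.18%, and with SC-435 5 of 15 were called lower against 4.57%. *Tnfaip3* fell by 2.15, *Icam1*, another adhesion protein, by 1.56, *Relb* by 1.20 and *Nfkbiz* by 1.06. The median log2 fold change of the 15 was 0.49 and −0.63 in females and 0.85 and −0.85 in males.

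Macrophage and monocyte, neutrophil and dendritic cell markers were called in KO comparisons of both sexes. Kupffer cell, T and NK cell and B cell markers were called in females only. The part of these cells in the chemokine differences was not tested. Of all genes, 5.67% were called higher between female genotypes and 3.7% lower with SC-435. In males these shares were 0.914% (3.18% without WT chow replicate 1) and 4.57%. Of 12 macrophage and monocyte markers, 9 were called higher in female KO mice and 9 lower with SC-435, and their summed level was 203 to 304 CPM in WT chow, 350 to 599 in KO chow and 195 to 256 in treated KO females. In males 3 of 12 were called higher between genotypes (6 higher and 1 lower without WT chow replicate 1) and 9 lower and 1 higher with SC-435, with sums of 202 to 389, 240 to 911 and 225 to 369 CPM. The highest, 911 CPM, was KO chow replicate 4, the mouse with the highest *Ccl6*. *Ccl2* was highest in KO chow replicate 2, whose macrophage sum was 277 CPM. These are single mice, and a link of either gene to macrophage content was not tested.

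Dendritic cell markers were called higher for 4 of 7 in female KO mice and lower for 2 with SC-435 (sums of 12.8 to 15.2, 19.6 to 30.2 and 13.7 to 17.3 CPM), and in males for 0 and 2 (6.71 to 15, 15.2 to 29.8 and 11.3 to 14.9 CPM). Of 10 neutrophil markers 3 passed the count filter in the comparisons with KO chow mice. These were called higher in female KO mice and lower with SC-435 in both sexes (sums of 2.98 to 4.18, 5.37 to 12.1 and 2.45 to 4.18 CPM in females and 2.17 to 3.63, 5.48 to 14.7 and 1.78 to 3.25 in males). In treated KO against WT chow mice only 2 passed in females and 1 in males. Some of the 3 therefore passed only through the KO chow mice, where the sums were high, so their calls were largely set by the filter. The neutrophil-defining *Ly6g* was at 0 in both female SC-435 groups, and *Ngp* and *Camp* in male WT chow mice. Of 7 Kupffer cell markers 3 were higher in female KO mice and 2 lower with SC-435 (sums of 293 to 349, 393 to 617 and 233 to 380 CPM), and 0 were called in males (492 to 762, 633 to 1050 and 449 to 567 CPM).

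T and NK cell markers were called for 2 of 11 tested between female genotypes, higher, and 1 of 12 with SC-435, lower, and for 0 in males. Their summed level in treated KO females was 3.85 to 10.9 CPM, and the highest was replicate 4, which also had the highest *Ccl5* at 4.20 CPM. Replicate 4 was also highest for both among KO chow males (sum 8.06 CPM) and treated KO males (6.01 CPM). Among KO chow females the highest sum was replicate 1 (9.98 CPM), but *Ccl5* was highest in replicate 2 (sum 7.63 CPM). A link between the 2 was not tested. B cell markers were called for 1 and 2 of 6 in females and 0 in males. Outside the leukocytes, cholangiocyte markers were called higher for 4 of 7 tested in both sexes and lower with SC-435 for 1 of 7 in females and 5 of 7 in males. Stellate cell markers were called for 2, 1, 0 and 2 of 8 in the female and male genotype and SC-435 comparisons taken in turn. Endothelial and erythroid markers were called for 0 in all 4, and hepatocyte markers for 1 (lower, female genotypes). Without WT chow replicate 1, male genotype calls were 5 of 7 cholangiocyte, 2 of 8 stellate cell, 2 of 3 neutrophil and 1 of 7 dendritic cell markers, all higher. *Siglecf*, the 1 eosinophil and mast cell marker of 7 tested, was called in all but the male genotype comparison. It passed the filter only in comparisons with KO chow mice, so these calls too were largely set by the filter.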

How the data were processed

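RNA-seq was made from poly(A)-selected liver RNA of 32 mice. Per the labels and the submitters' processing notes, the authors aligned reads to mm10 with HISAT2 (2.0.5) and deposited whole-number counts per gene from featureCounts (1.5.0-p3), with gene lengths in bases as another deposited column, and the notes also list DESeq2 (1.20.0) and GATK (4.1.1.0). The strand setting of the counting is not given in the sources used here. The authors' own fold changes, p-values and FPKM columns were not used. All columns of counts matched a sample.

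Each comparison was fitted on the whole table with edgeR 4.0.16 (R 4.3.3): filterByExpr, TMM factors, glmQLFit and glmQLFTest on the 2 groups compared, or on 4 groups for an interaction, with Benjamini-Hochberg adjustment over all genes tested. Calls needed an adjusted p below 0.05 and a log2 fold change beyond 1 in size, or for an interaction the adjusted p alone. Standard errors are the log2 fold change divided by the root of the F statistic. Members below the filter were compared in CPM with exact two-sided permutation tests (scipy 1.17.1). The method was tested on simulated data. Replicates within groups were compared in 48 pairs, and none agreed within sampling noise.

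The members and gene lists were chosen with earlier results of these data known. Named were all members, the CC receptors of the list, at most the 4 largest calls per list and comparison, and the 3 genes most like each member. The likeness search took members averaging 10 or more counts and candidates averaging 50 or more, on log2 CPM with a prior count of 1. Alternatives were size-factor scaling, library size only, DESeq2 1.42.0, no filter, a mean of at least 50 counts, a replicate block, 4 groups of a sex in one fit, and leaving out each library. Replicate numbers did not pair mice across groups. Total counts of 36476021 to 44771350 per library limit the precision of members with few counts, and limits from a count of 0 cover counting error only, while standard errors and intervals include the spread between mice. Some items of the families described are not reported here.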

Additional observations from a re-analysis of the deposited data

Results flagged for a closer look

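Values far from the rest of their group were looked for with Dixon's test in 72 groups of 4 mice, where chance alone gives about 1 in 20. In *Ccl2*, female WT chow replicate 1 was at 1.26 CPM with the next mouse at 0.639. In *Ccl6*, male WT chow replicate 2 was at 3.92 CPM below the next at 5.20, and male WT replicate 4 with SC-435 was at 14.9 CPM above the next at 7.81. In *Ccl9*, female WT chow replicate 1 was at 75.4 CPM (next 63.1) and female WT replicate 4 with SC-435 at 67.6 CPM (next 53.3). In *Ccl22*, female KO replicate 4 with SC-435 was at 0.477 CPM (next 0.309). None of these mice was male WT chow replicate 1.

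The response to SC-435 differed between KO and WT mice for 2 members, by the interaction test in edgeR: *Ccl6* in females (−1.82 on the log2 scale) and *Ccl2* in males (−3.93).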

How the results depend on the processing

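Over 89 fitted member differences and 1543 alternative fits, 1451 kept their direction and their side of the threshold, 19 lost and 35 gained a call in the same direction, and 38 changed sign. The number of members called was within 1.5 times the reported count in 189 of 216 alternatives. Between female genotypes it was 1 to 7 when single libraries were left out, and for SC-435 in KO females 3 to 6. Between male genotypes, reported at 2, it was 6 in DESeq2, 6 with 4 groups in one fit, 1 with a mean of at least 50 counts, 1 with the replicate block (where *Ccl4* had an adjusted p of 0.113) and 1 to 3 without single libraries. For SC-435 in KO males, reported at 4, it was 1 with a mean of at least 50 counts, which removes the rarer members, and 3 to 5 without single libraries. The sex interaction for genotype went from 0 to 1 in DESeq2, and that for SC-435 from 0 to 1 in DESeq2, without a filter and with at least 50 counts, and 0 to 1 without single libraries. The interaction of genotype with SC-435 gave 2 calls in females in DESeq2 (1 to 2 without single libraries), and in males 3 in DESeq2 and 2 without a filter (1 to 2 without single libraries). The share of all genes called moved too. Without female KO chow replicate 4 or 2, 7.56% or 3.86% were called higher between female genotypes, and 5.51% or 1.98% lower with SC-435. In the female interaction 4.97% or 0.416% were called negative in these fits. For the DESeq2 interactions the share is not given, so the member counts alone do not set the members apart from all genes. Elsewhere the causes were not tested.

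The sign changed only where the reported difference was not called. Without single libraries, *Ccl9* and *Ccl24* between female genotypes ran from −0.04 to 0.20 (−0.00 once) and −0.17 to 0.36, *Ccl24* with SC-435 in KO females from −0.30 to 0.24 (0.03 with the replicate block), *Ccl5* between male genotypes from −0.01 to 0.47, and *Ccl2* and *Ccl24* of treated KO against WT chow females from −0.39 to 0.09 and −0.09 to 0.20. In WT males with SC-435, *Ccl2* ran from −0.11 to 0.17 and *Ccl24* from −0.10 to 0.20, with *Ccl24* at 0.13 with library size only, 0.01 without a filter, 0.00 with at least 50 counts, 0.02 with the block and 0.00 with 4 groups in one fit. *Ccl24* of treated KO against WT chow males ran from −0.31 to 0.03. Among interactions, sex by genotype ran from −0.76 to 0.10 for *Ccl6*, −1.96 to 0.04 for *Ccl7* and −0.20 to 0.05 for *Ccl9*, sex by SC-435 from −0.70 to 0.13 for *Ccl6*, and genotype by SC-435 in females from −0.96 to 0.64 for *Ccl4*. With library size only, genotype by SC-435 in males was −0.13 for *Ccl9* and −0.00 for *Ccl24*.

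Scaling by library size only moved the median of all genes to 0.17 and −0.18 in the female and 0.29 and −0.23 in the male genotype and SC-435 comparisons, from −0.02, −0.02, 0.04 and −0.03, and reversed no called member. The count of all genes called higher between male genotypes was 145, and 698 in DESeq2, 794 with 4 groups in one fit, 234 without a filter, 89 with at least 50 counts, 15 with the replicate block and 9 to 522 without single libraries. Same-numbered mice correlated at −0.14 to 0.15 in their deviations, and 9 of 32 correlated best with their own number. Except for *Ccl4* above, the block removed no member call. With at most 58 counts in any mouse, *Ccl3*, *Ccl4*, *Ccl7* and *Ccl20* are limited by depth, as is *Ccl22* in WT chow mice with 1 to 11 counts.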
